A study of Rattus norvegicus with 48 samples.

Results

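The cluster of miR-183, miR-96 and miR-182 is a group of 3 microRNA (miRNA) hairpins, Mir183, Mir96 and Mir182, that lie next to each other on rat chromosome 4. Its members were taken from the count table by name, as every arm of miR-183, miR-96 and miR-182. This gave 5 mature miRNAs of 764 listed: rno-miR-183-5p, rno-miR-183-3p, rno-miR-96-5p, rno-miR-96-3p and rno-miR-182. Of these, 3 (miR-183-5p, miR-96-5p and miR-182) passed the filter of 5 RPM (reads per 1000000 counted reads) in at least 3 libraries and were among the 301 miRNAs tested. The -3p arms of miR-183 and miR-96 did not pass it and are described by their reads.

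miRNA-seq was performed on liver pieces of 48 male Sprague-Dawley rats, with 1 library per rat and 3 rats in each of 16 groups. Thioacetamide (TAA), a compound toxic to the liver, was given once daily at a low (4.5 mg/kg), middle (15 mg/kg) or high (45 mg/kg) dose for 3, 7, 14 or 28 days (written 3-d to 28-d), and rats given vehicle alone were the controls of each time point. No genotype other than the strain is named, and the age of the rats is not given in the sources used here. Libraries held 293331 to 14906217 miRNA reads (median 10237542), the lowest being control 3-d replicate 1, and the next lowest held 4829217.

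The 3 hairpins of the cluster are made from a shared transcript in many animals, and the mature miRNAs then lower the output of messenger RNAs that carry matches to their seed, the bases near the 5′ end that lead target pairing. The cluster is best known from sensory cells, such as the photoreceptors of the retina and the hair cells of the inner ear. In liver it is mostly studied in tumours, where raised levels have been described, and among the best studied targets of miR-182 and miR-96 are messenger RNAs of FOXO transcription factors.

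The mature sequences of the 3 expressed members are shown because they are alike at the seed and yet can be told apart by reads. They were read from RefSeq (rat build GRCr8), written 5′ to 3′, with the seed, bases 2 to 8 counted from the 5′ end, in capitals.
miR-183-5p: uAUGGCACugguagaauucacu
miR-96-5p: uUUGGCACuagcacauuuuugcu
miR-182: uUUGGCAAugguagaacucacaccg

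No 2 members had the same seed. Between miR-183-5p and miR-96-5p the seeds differed by A2U, between miR-96-5p and miR-182 by C8A, and between miR-183-5p and miR-182 by both A2U and C8A, with positions counted from 1 at the 5′ end and the first-named member's base first. Counted from base 1 on, seed included, the likeness took another order. Aligned from the 5′ end without gaps, miR-183-5p and miR-182 were the same at 18 of 22 bases. miR-183-5p and miR-96-5p were the same at 13 of 22, and miR-96-5p and miR-182 at 12 of 23. Of the 764 miRNAs listed, 689 had a RefSeq sequence of the same name, and none of these other than the members had the seed of a member. The 25 bases of miR-182 equal the longest read length that the authors kept, so longer forms of it were not counted, whereas miR-183-5p (22 bases) and miR-96-5p (23 bases) were below that length.

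The 2 hairpins whose arms were both counted are shown with the mature arms in capitals, the -5p arm first, and Mir182 with its 1 counted arm in capitals.
Mir183: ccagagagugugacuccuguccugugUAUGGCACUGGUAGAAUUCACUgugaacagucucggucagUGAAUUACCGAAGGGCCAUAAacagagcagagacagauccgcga
Mir96: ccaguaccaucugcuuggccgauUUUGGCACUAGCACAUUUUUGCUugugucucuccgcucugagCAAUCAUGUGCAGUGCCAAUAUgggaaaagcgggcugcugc
Mir182: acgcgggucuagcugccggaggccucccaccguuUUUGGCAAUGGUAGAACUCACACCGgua

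In GRCr8 all 3 hairpins are on the minus strand of chromosome 4: Mir183 at chr4:59756044-59756153, Mir96 at chr4:59755841-59755946 and Mir182 at chr4:59752246-59752307. Mature miR-183-5p is at chr4:59756106-59756127, miR-96-5p at chr4:59755901-59755923 and miR-182 at chr4:59752249-59752273. The gap between Mir183 and Mir96 is 97 bases and that between Mir96 and Mir182 is 3533 bases, and the whole cluster spans 3908 bases. The count table was made with build rn5, so these positions were used for the layout of the cluster and not to match reads.

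The members were present at very unequal levels. Across the 48 libraries 1036621 reads were assigned to miR-182, 69940 to miR-183-5p, 12082 to miR-96-5p, 561 to miR-183-3p and 10 to miR-96-3p. miR-182 held 92.6% of the reads of the cluster (89.2% to 95.8% in single libraries, and 97.2% in the shallow one), miR-183-5p held 6.25% (3.73% to 9.64%, and 2.21% in the shallow library, on 11 reads) and miR-96-5p held 1.08% (0.397% to 2.16%). By mean RPM miR-182 ranked 40 of the 664 miRNAs with a read, miR-183-5p ranked 120 and miR-96-5p ranked 205. Each read stands for 1 mature miRNA, so no scaling for length was applied, but ligation and amplification can differ between sequences and the shares are shares of reads.

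The -3p arms made up a small part of their hairpins. Of the reads of both arms of miR-183, 0.796% were miR-183-3p, and without control 3-d replicate 1 the share ran from 0.299% to 1.74% in single libraries. Pooled over the 12 libraries of a dose it was 0.764% in controls, 0.753% at the low, 0.747% at the middle and 0.900% at the high dose; these shares were not tested against each other. miR-96-3p was found in 8 of 48 libraries, with 1 or 2 reads each, and its share of miR-96 reads was 0.0827%.

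In the 12 control livers the level of miR-182 ran from 1104 to 2192 normalized RPM, with a median of 1413. Normalized RPM here is the RPM of a library after upper quartile scaling, and it is the unit of all levels that follow. miR-183-5p ran from 31.01 to 198 with a median of 96.2, and miR-96-5p from 5.64 to 23.3 with a median of 12.2. The lowest values of miR-183-5p and miR-96-5p were both in control 3-d replicate 1, where they rested on 11 and 2 reads.

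Between the time points, no member was called in any of the 6 pairs of control groups (0 of 18 values with an adjusted p below 0.05, and 0 of 18 with an unadjusted p below 0.05, by edgeR's quasi-likelihood test). Over all tested miRNAs and pairs 12.96% of values were called. The smallest p among the members was for miR-96-5p, which was 0.79 higher at 14-d than at 7-d on the log2 scale (SE 0.42, adjusted p = 0.247, Benjamini-Hochberg over all 6 pairs). The 3 control values were 10.7, 11.8 and 11.9 at 7-d and 20.3, 21.8 and 17.4 at 14-d, and the difference was not called.

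Ordered by group mean, middle 28-d was the highest of the 16 groups for every member, with 3158 ± 1367 normalized RPM (SD, n = 3) for miR-182, 252 ± 83.8 for miR-183-5p and 60.6 ± 22.3 for miR-96-5p. The next in order was high 7-d for miR-182 (3003 ± 807) and miR-183-5p (185 ± 89.1), and middle 14-d (32.5 ± 12.04) and middle 7-d (31.2 ± 6.98) for miR-96-5p. The lowest was control 7-d for miR-182 (1217 ± 121), low 28-d for miR-183-5p (85.1 ± 13.7) and control 3-d for miR-96-5p (10.7 ± 5.33). Neighbours in this order lay closer than the larger of their SDs in 15 of 15 pairs for miR-182 and miR-183-5p and in 14 of 15 for miR-96-5p, the exception being middle 28-d over middle 14-d.

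**Figure D1:**
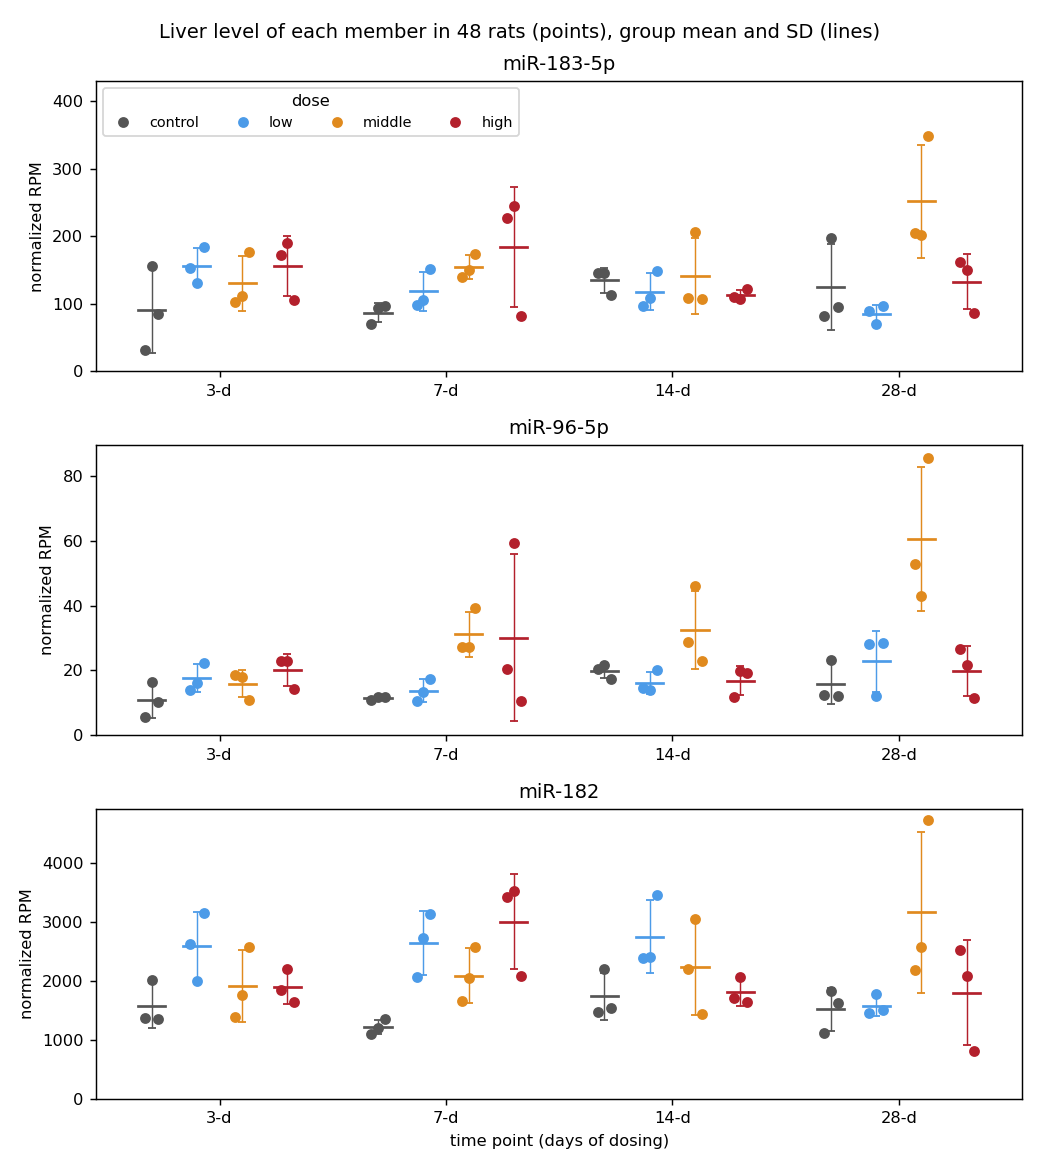
Level of miR-183-5p, miR-96-5p and miR-182 in the liver of each of 48 rats, in normalized RPM on axes that start at 0, by time point; colours give the dose, points are rats, horizontal lines are group means and vertical lines are SD (n = 3). The middle 28-d rats lie above all 3 control 28-d rats for every member, and the group SDs differ widely, from 0.653 for miR-96-5p in control 7-d to 25.9 in high 7-d.

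Each treatment group was compared with its time-matched controls, and a miRNA was called a differentially expressed miRNA (DEM) where it passed both limits that the study set, an unadjusted p under 0.05 and a change of more than 1.5-fold. The Benjamini-Hochberg adjusted p over the 301 tested miRNAs is given beside it. The 3 doses of a time point share the same 3 control rats, so their results are not independent. In liver pieces, more cells of a type that holds a miRNA and more of the miRNA per cell cannot be told apart.

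All 3 members were DEMs, and higher than in controls, in 3 of the 12 treatment conditions: middle 7-d, middle 28-d and high 7-d. One member was a DEM in each of 3 further conditions, miR-182 in low 7-d and low 14-d and miR-96-5p in middle 14-d. In total 12 of 36 values were called higher and 0 were called lower, and 9 of them also had an adjusted p below 0.05; 0 values lower had an unadjusted p below 0.05, and the smallest log2 fold change was -0.55. Of all tested miRNAs, 11.96% were called higher in middle 7-d, 20.9% in middle 28-d, 17.9% in high 7-d, 18.3% in low 7-d, 22.9% in low 14-d and 11.96% in middle 14-d. With an adjusted p below 0.05 and the same fold these shares were 10.96%, 19.3%, 11.6%, 17.3%, 20.9% and 8.64%.

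In the other 6 conditions no member was called in either direction. Of all tested miRNAs 9.97%, 1.66% and 6.98% were called higher in low, middle and high 3-d, 5.65% in high 14-d, 3.65% in low 28-d and 12.96% in high 28-d. With an adjusted p below 0.05 this held for 0.00% in each 3-d group, 1.33% in high 14-d, 0.332% in low 28-d and 1.99% in high 28-d. The share called lower was 6.64% in low 3-d, 10.6% in low 7-d, 9.63% in low 14-d and 8.64% in low 28-d, 1.33%, 3.99%, 5.32% and 11.96% at the same times with the middle dose and 4.32%, 3.32%, 3.65% and 2.33% with the high one.

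At 7-d the change was seen for miR-182 at every dose. Its 3 control values were 1104, 1203 and 1345 normalized RPM. They were 2061, 2725 and 3131 at the low dose, 1649.7, 2039 and 2572 at the middle dose and 3415, 3521 and 2073 at the high dose. Every treated rat was above every control rat, which was the case for 30.2%, 24.3% and 22.6% of tested miRNAs at the low, middle and high dose. The log2 fold change was 1.12 (SE 0.16, adjusted p = 0.000789) at the low dose, 0.78 (SE 0.16, adjusted p = 0.00643) at the middle dose and 1.30 (SE 0.23, adjusted p = 0.0107) at the high dose. The level did not follow the order of the doses: the group mean was lowest at the middle dose among treated groups, and none of the differences between doses at 7-d was called for miR-182. Control 7-d had the lowest mean of the 4 control groups, and against all 12 controls pooled the middle-dose value was 0.46 and not called, while those of the low and high dose were still called.

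miR-96-5p was higher at 7-d with the middle dose. Its control values were 10.7, 11.8 and 11.9 normalized RPM, and the middle-dose values were 27.2, 27.1 and 39.2. The groups were well apart, with a log2 fold change of 1.44 (SE 0.18, adjusted p = 0.000526), the largest of the 3 members there. At the low dose the values were 10.4, 13.3 and 17.4, overlapping the controls, and it was not a DEM (log2 fold change 0.25, SE 0.20, adjusted p = 0.331). At the high dose they were 20.5, 59.5 and 10.4. That group had 1 rat far above and 1 rat below the controls. The log2 fold change of 1.40 (SE 0.57, adjusted p = 0.154) lost its call in 4 of the 6 fits that left out 1 library. It fell to 0.43 and was no longer called without high 7-d replicate 26, the rat with the value of 59.5. The call was also lost with size factors (1.27).

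miR-183-5p had control values of 70.8, 93.2 and 96.9 normalized RPM at 7-d. The middle-dose values of 139, 149.6 and 174 lay above all of them, with a log2 fold change of 0.82 (SE 0.14, adjusted p = 0.00381); against all 12 controls pooled it was 0.48 and not called. The low-dose values of 97.7, 106 and 152 also lay above them, but the fold change of 1.36 was below the threshold (adjusted p = 0.0955). At the high dose 2 rats had 227 and 245 and the other had 82.3, inside the control range. The log2 fold change of 1.09 (SE 0.39, adjusted p = 0.125) was lost in 4 of the 6 fits that left out 1 library; it was 0.83 without high 7-d replicate 26 and 1.44 without high 7-d replicate 27. Against pooled controls it was 0.75 and not called. The replicate with the low value, replicate 27, was the lowest of its group for all 3 members.

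At 28-d the members were DEMs with the middle dose alone among the 3 doses. The control values of miR-96-5p were 12.3, 23.3 and 12.1 normalized RPM and the middle-dose values were 52.9, 43.1 and 85.7. This was the largest change of the cluster, a log2 fold change of 1.92 (SE 0.31, 3.79-fold, adjusted p = 0.00116), and it was called in each fit that left out 1 library, from 1.59 to 2.31.

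miR-183-5p had 81.3, 198 and 95.4 normalized RPM in the 28-d controls and 205, 202 and 349 with the middle dose, with a log2 fold change of 1.01 (SE 0.33, adjusted p = 0.0367). The highest control, replicate 17, was just below the lowest treated rat. The call was lost in 3 of the 6 fits without 1 library, with 0.71 without middle 28-d replicate 39 and 1.51 without control 28-d replicate 17.

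miR-182 had 1116, 1827 and 1616 in the controls and 2187, 2567 and 4722 with the middle dose, with a log2 fold change of 1.06 (SE 0.29, adjusted p = 0.0175). It was called in all 6 such fits, and was 0.65 without middle 28-d replicate 39. This rat had the highest level of every member of all 48 rats. Treated rats above all controls were found for 28.9% of tested miRNAs in middle 28-d.

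The low- and high-dose rats at 28-d overlapped the controls for all 3 members. At the low dose miR-182 had 1447, 1780.1 and 1497 normalized RPM (log2 fold change 0.05), miR-183-5p had 89.2, 69.8 and 96.3 (log2 fold change -0.55) and miR-96-5p had 28.2, 11.9 and 28.4 (log2 fold change 0.52). At the high dose the fold changes were 0.24, 0.09 and 0.32 on the log2 scale, in the same order of members. High 28-d replicate 21 had the lowest level of miR-182 of all 48 rats, 805, and was also the lowest of its group for miR-183-5p (85.7) and miR-96-5p (11.4).

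Differences between the effects of doses or of neighbouring time points were then tested themselves. Of 63 such values (3 members, 21 pairs), 3 had an adjusted p below 0.05, which is 4.76% and not above the 5.63% over all miRNAs. All 3 were at 28-d, where they are 3 of the 6 values that set the middle dose against another dose. The effect on miR-183-5p was 1.57 higher on the log2 scale with the middle than with the low dose (SE 0.38, adjusted p = 0.0131), and that on miR-96-5p was 1.40 higher (SE 0.41, adjusted p = 0.0382). The effect on miR-96-5p was lower with the high than with the middle dose (a difference of -1.60, SE 0.42, adjusted p = 0.0179). The other 3 were not called: miR-182 was 1.00 higher with the middle than with the low dose (adjusted p = 0.0544) and differed by -0.81 between the high and the middle dose (adjusted p = 0.134), and miR-183-5p by -0.93 between these (adjusted p = 0.152). At 28-d 4.32% of miRNAs differed between the middle and low doses and 8.31% between the high and middle doses. All 3 differences rest in part on middle 28-d replicate 39: without it they were 1.26, 1.07 and -1.27 and none was called. That of miR-96-5p between the middle and low dose was also not called with TMM scaling (1.27), size factors (1.30) or no filter (1.18). These values are differences between treated groups relative to shared controls, and the controls cancel in them.

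At 14-d 2 members were DEMs, each with another dose. miR-182 was higher with the low dose, at 2377, 2396 and 3460.4 normalized RPM against 1464, 2192 and 1546 in controls, without overlap as for 32.9% of tested miRNAs. The log2 fold change was 0.66 (SE 0.19, adjusted p = 0.0174). It lay close to the fold threshold and, of the scalings tried, passed it with upper quartile scaling alone: it was 0.47 with TMM scaling, 0.52 with size factors and 0.50 with library size. With upper quartile scaling the call was lost with no filter (0.39) and with 5 RPM required in every library (0.45). It was lost in 2 of the 6 fits that left out 1 library, being 0.46 without low 14-d replicate 42. It was also lost with the Wald test of DESeq2 (0.52).

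miR-96-5p was higher at 14-d with the middle dose, at 28.8, 46.02 and 22.8 normalized RPM against 20.3, 21.8 and 17.4 in controls, without overlap as for 23.9% of tested miRNAs. The log2 fold change was 0.72 (SE 0.25, adjusted p = 0.0695). The call was lost in the joint fit of all 48 libraries (0.71) and in 2 of the 6 fits that left out 1 library. The value was 0.38 and no longer called without middle 14-d replicate 32. That rat, like replicate 39 at 28-d, was the highest of its group for every member, with 206 for miR-183-5p and 3038 for miR-182. With the high dose the 3 log2 fold changes at 14-d were 0.06 for miR-182, -0.26 for miR-183-5p and -0.24 for miR-96-5p, and no member was a DEM.

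At 3-d no member was a DEM with any dose. All 9 log2 fold changes were above 0, from 0.26 (miR-182, high dose) to 0.78 (miR-96-5p, high dose). The SEs were large, 0.31 to 0.58, and the control group held the shallow library: its values for miR-183-5p were 31.01, 156 and 84.7 normalized RPM. Without that library the log2 fold changes of miR-183-5p were 0.37, 0.11 and 0.37 at the low, middle and high dose, in place of 0.75, 0.49 and 0.75. The median of all 301 miRNAs was also above 0 at 3-d (0.16, 0.21 and 0.28 at the low, middle and high dose) and fell by 0.14 to 0.23 with TMM scaling, under which miR-182 at the high dose was at -0.01. The nearest to a call was miR-182 at the low dose, where the rats had 2624, 1999 and 3146 against 1361, 2017 and 1351 (log2 fold change 0.72, SE 0.31, adjusted p = 0.260). Against all 12 controls pooled it was called (0.78, adjusted p = 0.0147).

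**Figure D2:**
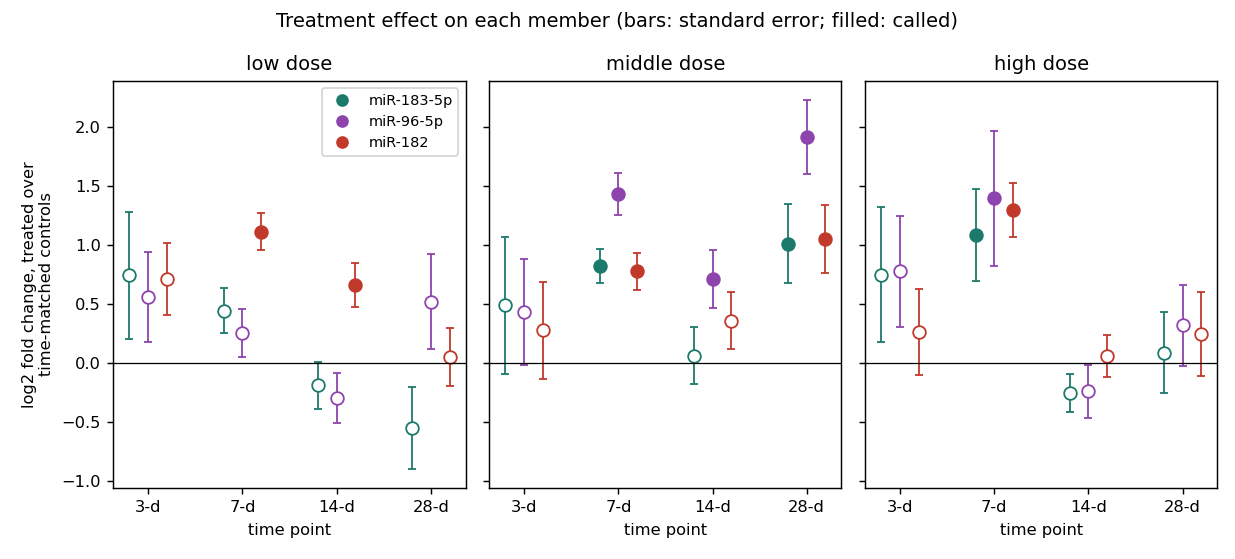
Log2 fold change of each member, treated over time-matched controls, for the 3 doses (panels) and 4 time points (x axis); vertical bars are the standard error and filled circles are DEMs. miR-182 (red) was called at 7-d with every dose, and with the middle dose miR-96-5p (purple) was the highest of the members at every time point after 3-d, reaching 1.92 at 28-d.

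Averaged over the 4 time points in 1 model of all 48 libraries, with 12 treated and 12 control rats for each dose, miR-182 had an adjusted p below 0.05 with every dose. It had a mean log2 effect of 0.64 (SE 0.16, adjusted p = 0.00114) with the low dose, 0.62 (SE 0.16, adjusted p = 0.00267) with the middle dose and 0.47 (SE 0.16, adjusted p = 0.0259) with the high dose. Adjusted p values below 0.05 at any fold, in the higher direction, were found for 28.6%, 23.3% and 21.6% of tested miRNAs at these doses.

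miR-96-5p had its largest mean effect with the middle dose, 1.11 (SE 0.21, adjusted p = 0.000140). It was 0.25 (SE 0.21, adjusted p = 0.338) with the low dose and 0.55 (SE 0.21, adjusted p = 0.0499) with the high dose, where the call was lost in 37 of 48 fits that left out 1 library. miR-183-5p was called with the middle dose alone, at 0.58 (SE 0.19, adjusted p = 0.0143), beside 0.10 (adjusted p = 0.694) with the low and 0.40 (adjusted p = 0.102) with the high dose. The calls of the high dose were lost with TMM scaling, where the mean effects were 0.40 for miR-182 and 0.49 for miR-96-5p. Whether the mean effects differ between doses was not tested; the tests of single time points above bear on 28-d.

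The balance between the members was then compared within libraries, as the log2 ratio of the reads of 2 members, which needs no scaling between libraries. For every read of miR-96-5p there were 72.0 to 134 reads of miR-182 in 11 of the 12 control libraries, and 242 in the shallow one, where miR-96-5p had 2 reads. With the middle dose miR-96-5p was raised relative to miR-182 by 0.55 on the log2 scale (1.47-fold, two-sided exact permutation test within time points, p = 0.00248, adjusted p = 0.0223 over 9 ratio tests). The mean difference was positive at 4 of 4 time points, 0.29, 0.66, 0.34 and 0.93 in order of time. At 3-d the control mean includes the shallow library, with a log2 ratio of -7.60. The other control 3-d libraries were at -6.95 and -7.03, inside the middle 3-d range of -7.86 to -6.22. Within single time points the 3 treated and 3 control libraries did not overlap at 7-d and 28-d. The call was lost without middle 3-d replicate 10 (0.47, adjusted p = 0.0986) or replicate 11 (0.52, adjusted p = 0.0817), and with labels exchanged over all 24 libraries (adjusted p = 0.0570), all by the permutation test.

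With all libraries, the other 8 ratio tests had adjusted p values above 0.05. miR-96-5p relative to miR-183-5p was 0.47 higher with the middle dose (exact permutation p = 0.0121, adjusted p = 0.0544), and higher at 3 of 4 time points. With the low dose miR-182 relative to miR-183-5p was 0.44 higher (exact permutation p = 0.0271, adjusted p = 0.0813), with -0.32 at 3-d and 0.67, 0.87 and 0.53 at the later time points. The value at 3-d is set against a control mean that includes the shallow library, whose log2 ratio of 5.39 was the highest of all 48. Without that library the low-dose difference was 0.57 (adjusted p = 0.00135) and the middle-dose difference of miR-96-5p relative to miR-183-5p was 0.55 (adjusted p = 0.0134), so both were called by the exact permutation test. With the low dose miR-96-5p relative to miR-182 was -0.87 at 7-d and -0.97 at 14-d but 0.41 at 28-d, so the mean of -0.36 (exact permutation p = 0.0847, adjusted p = 0.191) covers time points of opposite direction.

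The ratio of miR-96-5p to miR-182 also differed between some stretches of the running number, 1 to 48, that the sample titles carry. What that number stands for is not given in the sources used here; all 48 barcoded libraries were pooled before sequencing. The middle 14-d, 7-d and 28-d libraries have the numbers 31 to 39, and their log2 ratios ran from -6.25 to -5.37. The low 14-d, 3-d and 7-d libraries, numbered 40 to 48, ran from -7.67 to -6.94, without overlap. Low 28-d, numbered 28 to 30, had 2 libraries at -5.68 and -5.72, as high as the middle dose that follows it in number, and 1 at -7.21. Other stretches were wide: middle 3-d, numbered 10 to 12, ran from -7.86 to -6.22, and high 7-d, numbered 25 to 27, from -7.63 to -5.89. A trend with the number was not tested. All 3 rats of a group have consecutive numbers, so the treatment group and the place in this order cannot be told apart.

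**Figure D3:**
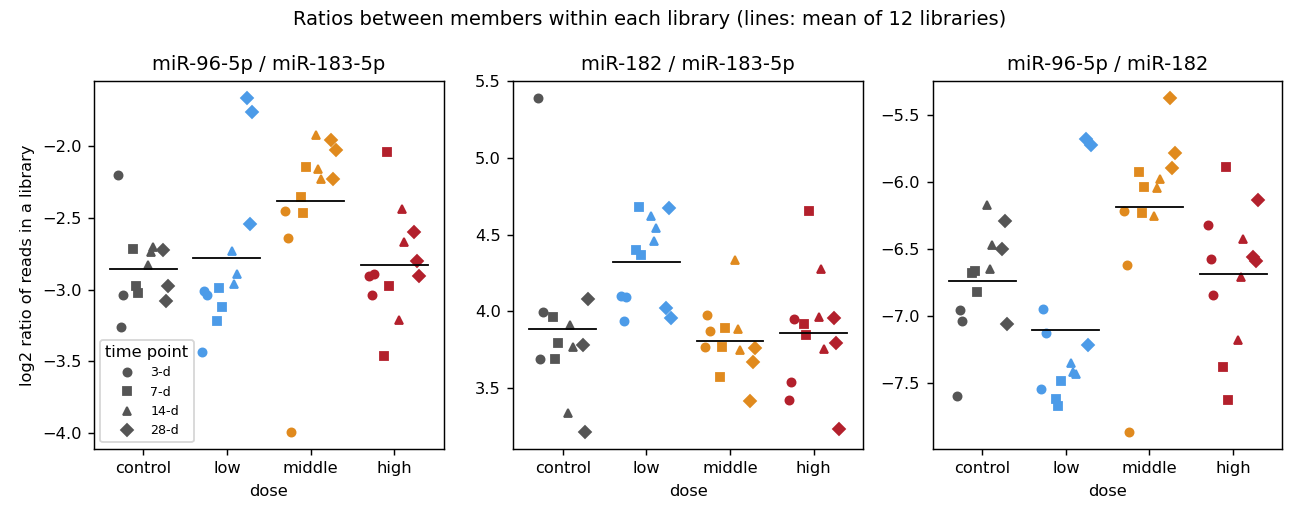
Log2 ratio of the reads of 2 members in each library, by dose (x axis, colours) and time point (marker shape); black lines are the mean of the 12 libraries of a dose. The mean of miR-96-5p over miR-182 was -6.18 with the middle dose and -6.74 in controls, and 2 of the 3 low 28-d libraries lie with the middle dose.

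The members also varied together from rat to rat. Within a group the rat with the highest level was the same for all 3 members in 13 of 16 groups, and the rat with the lowest level in 6 of 16. How often this holds for other sets of 3 miRNAs was not counted. Pearson's r of the log2 levels over the 48 libraries was 0.78 between miR-183-5p and miR-96-5p, 0.71 between miR-183-5p and miR-182 and 0.54 between miR-96-5p and miR-182. Without the shallow library these were 0.75, 0.74 and 0.52. As deviations from the group means, with all 48 libraries, r was 0.78, 0.72 and 0.57, so the likeness was there among rats of 1 group as well. These libraries share their scaling and their treatment groups, and r is given as a description.

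The level of miR-96-5p was also related to depth: r with the log2 total of the library was 0.48 over 47 libraries (the shallow one left out), beside 0.24 for miR-183-5p and -0.02 for miR-182. As deviations from the group means these were 0.25, 0.11 and -0.07. The part of depth in the results of miR-96-5p was not tested.

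**Figure D4:**
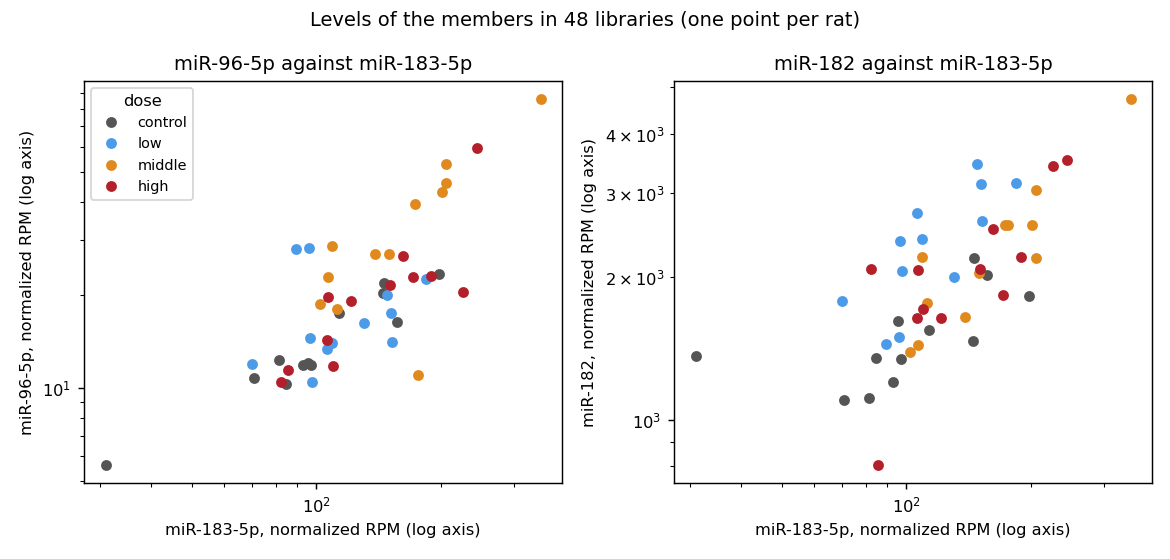
Levels of miR-96-5p (left) and miR-182 (right) against that of miR-183-5p in 48 libraries, in normalized RPM on log axes, with colours for the dose. The highest point in both panels is middle 28-d replicate 39, with 349 for miR-183-5p, 85.7 for miR-96-5p and 4722 for miR-182.

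By Pearson's r over the 48 libraries, miR-96-5p was the miRNA most like miR-183-5p of all 300 others tested. miR-183-5p was the most like both miR-96-5p and miR-182. From the side of miR-96-5p, miR-182 ranked 33. With Spearman's rho, and also without the shallow library, miR-183-5p ranked 5 for miR-96-5p and still 1 for miR-182. From the side of miR-183-5p, miR-96-5p ranked 3 with Spearman's rho and 1 without the shallow library. Outside the cluster, the miRNAs most like miR-183-5p were miR-151-5p (r = 0.72), miR-191a-5p (r = 0.70) and let-7f-1-3p (r = 0.68). Those most like miR-96-5p were miR-99a-5p (r = 0.77), miR-100-5p (r = 0.77) and miR-212-5p (r = 0.75), and those most like miR-182 were miR-6329 (r = 0.67), miR-466b-5p (r = 0.60) and miR-34a-5p (r = 0.59), a miRNA known as a target of p53. No miRNA outside the cluster was among the 3 most like of more than 1 member. The list of miR-96-5p depends on the shallow library, since 1 of its 3 miRNAs remained without it. In the list of miR-182, miR-7a-5p took the place of miR-34a-5p without that library and also with Spearman's rho. let-7f-1-3p left the list of miR-183-5p in both settings.

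Lists of miRNAs that mark cell types were set beside the cluster. The miRNAs of the hepatocyte list were abundant in every library: miR-122-5p, miR-192-5p and miR-194-5p together had 124341 to 318113 RPM over the 48 libraries, the lowest being the shallow control 3-d library. All 8 miRNAs of the epithelium and bile duct list were tested, and they did not move as 1 group in the conditions in which the cluster did. In middle 7-d 0 of 8 were called higher and 0 lower (median log2 fold change -0.10, beside -0.02 for all 301 miRNAs), in middle 28-d 2 were higher and 2 lower (median 0.09, beside 0.02) and in high 7-d 1 was higher and 2 lower (median -0.22, beside 0.14). Where 1 member was called, 3 were higher and 1 lower in low 14-d (median 0.39, beside 0.11). In low 7-d 0 were higher and 2 lower (median -0.15, beside 0.02), and in middle 14-d 1 was higher and 0 lower (median -0.14, beside 0.006). By an unadjusted p below 0.05 alone, at any fold, miR-141-3p was higher (0.43) and miR-203a-3p lower (-0.47) in middle 7-d, both named after their values were seen, as is miR-31a-5p.

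Within that list, miR-200c-3p was higher in middle 28-d (log2 fold change 1.09, SE 0.20, adjusted p = 0.00265) and high 7-d (0.91, SE 0.24, adjusted p = 0.0463), and also a DEM, higher, in low 14-d (1.14) and middle 14-d (0.92). Its group means were low, from 5.86 to 15.9 normalized RPM. Of its relatives, miR-200b-3p (-1.13, adjusted p = 0.0305) and miR-429 (-0.82, adjusted p = 0.0768) went the other way in high 7-d. There miR-141-3p was at 0.67 and miR-200a-3p at -0.25, neither a DEM. miR-200a-3p was a DEM, higher, in low 14-d (0.66), and miR-141-3p was a DEM, lower, in low 28-d (-0.89). miR-200b-3p was also lower in low 7-d (0.354-fold, adjusted p = 0.000211) and high 3-d (-1.24, adjusted p = 0.400), and miR-429 in low 14-d (-1.04), middle 28-d (-0.64, where miR-203a-3p was also lower, -0.77, and miR-31a-5p higher, 0.79) and low 7-d (-1.63, SE 0.14, adjusted p = 8.00e-05), where miR-182 was higher. The sum of the list ran from 3601 to 4165 RPM in control 7-d, 3390.5 to 3813 in low 7-d, 3527 to 3801 in middle 7-d and 3062 to 4326 in high 7-d.

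Of the list for neural, sensory and endocrine cells, 3 of 5 miRNAs were tested. miR-7a-5p, found in neurons and endocrine cells, was a DEM, and higher, in 8 of 12 conditions, including low 7-d (log2 fold change 1.83, SE 0.14, adjusted p = 7.48e-05), middle 28-d (1.30, SE 0.20, adjusted p = 0.00101) and high 7-d (1.48, SE 0.24, adjusted p = 0.00956). In middle 7-d, where all 3 members of the cluster were called, its log2 fold change was 0.52 and it was not a DEM. miR-375-3p, which marks endocrine cells, was a DEM in no condition, with log2 fold changes from -0.43 to 0.46, and miR-9a-5p, of neurons, was higher in low 14-d (1.55), middle 14-d (0.86), high 7-d (1.14) and high 14-d (0.61).

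Sums of other lists moved in some of the same conditions. The red blood cell list had 4844 to 98080 RPM in control 3-d, the highest being the shallow library. It had 4061 to 6085 RPM in control 7-d and 1811 to 2071 in middle 7-d, and the leukocyte list had 3563 to 4491 in control 28-d and 4811 to 6229 in middle 28-d. The hepatocyte list had 290728 to 318113 RPM in low 7-d, above the 221131 to 242511 of control 7-d, and 276829 to 287441 in middle 28-d, above the 221046 to 252084 of control 28-d. These sums are in RPM over all reads and did not match the fits with upper quartile scaling in both conditions. There, miR-122-5p was higher in low 7-d (log2 fold change 0.75, adjusted p = 0.000233) and lower in middle 28-d (-0.61, SE 0.16, adjusted p = 0.0164), where the values were 0.05 for miR-192-5p and -0.45 for miR-194-5p, neither a DEM. The stellate and smooth muscle cell list had 41832 to 46130 in control 7-d and 34277 to 41356 in middle 7-d, and the endothelium list had 20495 to 22586 and 23089 to 26968 in these groups. By the fits, 3 of 4 red blood cell miRNAs were DEMs in middle 7-d, all lower. In high 7-d and middle 28-d 3 of 4 were also lower, in middle 14-d 4, in low 7-d 2 and in low 14-d 1. Where no member of the cluster was called, 2 were lower in low 28-d and 1 in middle 3-d. In high 3-d 1 was lower and 1 higher, and in low 3-d, high 14-d and high 28-d 0 were called. None of the 3 stellate and smooth muscle cell and 2 endothelium miRNAs was a DEM in middle 7-d. None of the 5 leukocyte miRNAs was a DEM in middle 28-d. The pancreas list stayed at or below 0.886 RPM and the muscle list at or below 17.05 RPM in all groups. Their part in the levels of the cluster was not tested.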

How the data were processed

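Deposited values were read counts per mature miRNA and precursor, which the authors made from single-end HiSeq2000 reads of 18 to 25 bases with miRDeep2 and miRBase release 21, on build rn5 per the labels; read quality was checked with FastQC. The file held 847 rows. Of its mature miRNAs, 71 were listed for several precursors, and for each the precursor row with the highest sum of reads was used. All members had 1 row each.

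Of 664 miRNAs with a read, the 301 that reached 5 RPM in 3 or more libraries were tested in edgeR 4.0.16 (R 4.3.3) with the quasi-likelihood F-test and upper quartile normalization. There were 12 fits of 3 treated against 3 control libraries, and 1 fit of 16 group means for the dose means, the 21 differences of effects and the 6 control pairs. Calls used an unadjusted p below 0.05 and a fold above 1.5, or a Benjamini-Hochberg adjusted p below 0.05. The SE was the log2 fold change over the square root of F. Ratios used a pseudocount of 0.5 and all 160000 exchanges of labels within time points. Sequences matched RefSeq names for 5 of 5 members. Levels for correlations were log2 normalized RPM with a prior count of 2.

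A count of 0 allows up to 3 counts, which is 10.2 RPM in the shallowest library and 0.621 RPM or less in the others; this covers counting error only. The fits were tested on simulated data. The samples of a group are named as separate rats by the study. The members and the marker lists were chosen with earlier results of these data known. The miRNAs named were all members, the 3 most like each, and members of the marker lists. Alternatives were other scalings (TMM, size factors, library size), filters and tests (the exact test of edgeR and DESeq2 1.42.0), pooled controls, 1 joint fit and leaving out each library.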

Additional observations from a re-analysis of the deposited data

Results flagged for a closer look

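Of 63 differences between treatment effects, 3 (4.76%, beside 5.63% over all miRNAs) passed the test of the difference itself, all at 28-d. The effect on miR-183-5p was 1.57 higher on the log2 scale with the middle than with the low dose (SE 0.38, adjusted p = 0.0131 by edgeR). That on miR-96-5p was 1.40 higher with the middle than with the low dose (SE 0.41, adjusted p = 0.0382) and differed by -1.60 between the high and the middle dose (SE 0.42, adjusted p = 0.0179). The middle-dose values were 205, 202 and 349 normalized RPM for miR-183-5p and 52.9, 43.1 and 85.7 for miR-96-5p. Without middle 28-d replicate 39, the rat with 349 and 85.7, none of the 3 was called (1.26, 1.07 and -1.27), and that of miR-96-5p between the middle and low dose was not called with TMM scaling (1.27), size factors (1.30) or no filter (1.18).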

How the results depend on the processing

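No paired analysis was possible because the running numbers in the titles are shared by no 2 groups. Another scaling moved the median of all 301 miRNAs by -0.23 to 0.28.

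miR-183-5p was a DEM in 1 condition with all 12 controls pooled (3 as reported), and miR-96-5p in 2 with adjusted p values (4 as reported). The mean effect of the high dose lost its call for miR-182 with TMM scaling (0.40), size factors (0.36) and no filter (0.32), and for miR-96-5p with the same 3 (0.49, 0.46 and 0.39); with no filter that of the middle dose on miR-183-5p lost it too (0.47) and that of the low dose was -0.00491. The ratio of miR-96-5p to miR-182 with the middle dose (0.55) lost its call with labels exchanged over all 24 libraries (adjusted p = 0.0570, permutation test). Of the 3 miRNAs most like miR-96-5p, 1 was shared with Spearman's rho and 1 without the shallow library.

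Signs turned in values that were not called. With pooled controls miR-183-5p was 0.10 in low 14-d and 0.035 in high 14-d, and miR-96-5p -0.12 in low 7-d, 0.11 in low 14-d and 0.17 in high 14-d. miR-183-5p in high 28-d was -0.016 with no filter, miR-182 in high 3-d -0.014 with TMM scaling, and miR-182 in low 28-d -0.052 with a filter of 5 RPM in every library. The causes were not tested.

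Leaving out 1 library gave 2 to 4 DEM conditions for miR-183-5p, 3 to 5 for miR-96-5p and 4 to 6 for miR-182. The mean effect of the high dose was 0.39 to 0.55 for miR-182, 0.32 to 0.55 for miR-183-5p and 0.30 to 0.65 for miR-96-5p. The number of called differences was 0 without middle 28-d replicate 39 and 7 without high 7-d replicate 27. Ratios of miR-96-5p to miR-183-5p were 0.40 to 0.60 (middle) and -0.071 to 0.11 (high), of miR-182 to miR-183-5p 0.35 to 0.57 (low), -0.16 to 0.049 (middle) and -0.11 to 0.10 (high), and of miR-96-5p to miR-182 0.47 to 0.68 (middle) and -0.081 to 0.14 (high). Single conditions that turned were miR-183-5p in middle 14-d (-0.32 to 0.23) and high 28-d (-0.15 to 0.59), and miR-182 in high 14-d (-0.049 to 0.26), low 28-d (-0.13 to 0.21) and high 28-d (-0.075 to 0.60).

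With 3 rats in a group an exact permutation test of 1 condition could not go below p = 0.10, and miR-96-5p rested on as few as 69 reads in libraries other than the shallowest.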
